A study of Mus with 9 samples.

Results

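The genes described here are the secreted Wnt ligands, the Frizzled receptors, the Lrp5 and Lrp6 co-receptors and the secreted Wnt antagonists of the mouse hippocampus. The rule that chose them uses gene symbols and no measured value: every Wnt, Fzd, Dkk and Sfrp gene with a number in its name, Dkkl1, Lrp5, Lrp6, Wif1 and Frzb. The rule found 42 genes among 22206 probe sets (sets of short array probes for 1 transcript cluster), each with 1 probe set of its own: 19 ligands, 10 receptors, 2 co-receptors and 11 antagonists. These classes follow the gene symbol alone, so Dkk3 and Dkkl1 are counted as antagonists by name.

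Hippocampal RNA was measured on Clariom S Mouse arrays in 3 groups of 3 male mice, aged 16 weeks when the study began and older when the RNA was taken, after the treatment and the behavioral test. SAMR1, the senescence-resistant strain, and SAMP8, the senescence-accelerated strain, were given vehicle, and TG-treated SAMP8 mice were given the plant alkaloid trigonelline (TG) as an oral dose of 5 mg/kg, every day for 30 days and on through the behavioral test that followed. SAMP8 and SAMR1 are separate inbred strains, so a difference between them can come from any part of the genome in which they differ. The values used here are the authors' group averages, as log2 signal with 2 decimals. The averages carry no spread between mice and the authors' own test columns were not used here, so no test across arrays was made. A difference below is that between averages, with a rounding error of up to 0.01, and was not compared with the spread between replicates. How precise an average can be is limited by the 3 arrays behind it. A difference of at least 1.5-fold (0.58 on the log2 scale) is called past the limit, and the share of all probe sets past it is given once for each comparison and direction. The signal of a probe set depends on its probes, so levels were compared between groups and not between genes. In what follows, an average with TG is that of TG-treated SAMP8, and a difference with TG is that average minus the one of nontreated SAMP8.

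Wnt proteins are lipid-modified secreted ligands that bind Frizzled receptors at the cell surface. Together with the co-receptors Lrp5 and Lrp6 they can stabilize beta-catenin, which then acts with TCF/LEF factors on target genes, while other Wnt and Frizzled pairs act on cell polarity and calcium without beta-catenin. Dickkopf proteins such as Dkk1 block the co-receptors, whereas the Sfrp proteins, Frzb and Wif1 bind Wnt ligands outside the cell. In the hippocampus, Wnt signals are known for their part in its formation, in adult neurogenesis in the dentate gyrus and in the upkeep of synapses.

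Across the 3 comparisons, 5 of the 42 genes were past the limit at least once and 37 never were. The share of all probe sets past it at least once was not counted here, so whether 5 is few or many cannot be read from this number. For a single comparison and direction that share was 3.74% to 6.08%. The 5 were the co-receptors Lrp5 and Lrp6, the Dickkopf genes Dkkl1 and Dkk3, and the receptor Fzd4. No Wnt ligand was past it in any comparison. Most genes of the set differed little: 27 of 42 lay within 0.2 of 0 on the log2 scale between SAMP8 and SAMR1, 24 between TG-treated and nontreated SAMP8, and 26 between TG-treated SAMP8 and SAMR1. The corresponding shares of all probe sets were 48.9%, 51.5% and 49.5%. Many of these genes had a low signal: 16 of 42 (10 ligands and 6 antagonists) had a mean of the 3 averages below 4.40, the limit of the lowest 25% of probe sets. Small differences were also usual there: in SAMP8 vs SAMR1, 6.53% of all probe sets in that lowest 25% were past the limit in either direction, against 13.7% in the next 25%.

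**Figure D1:**
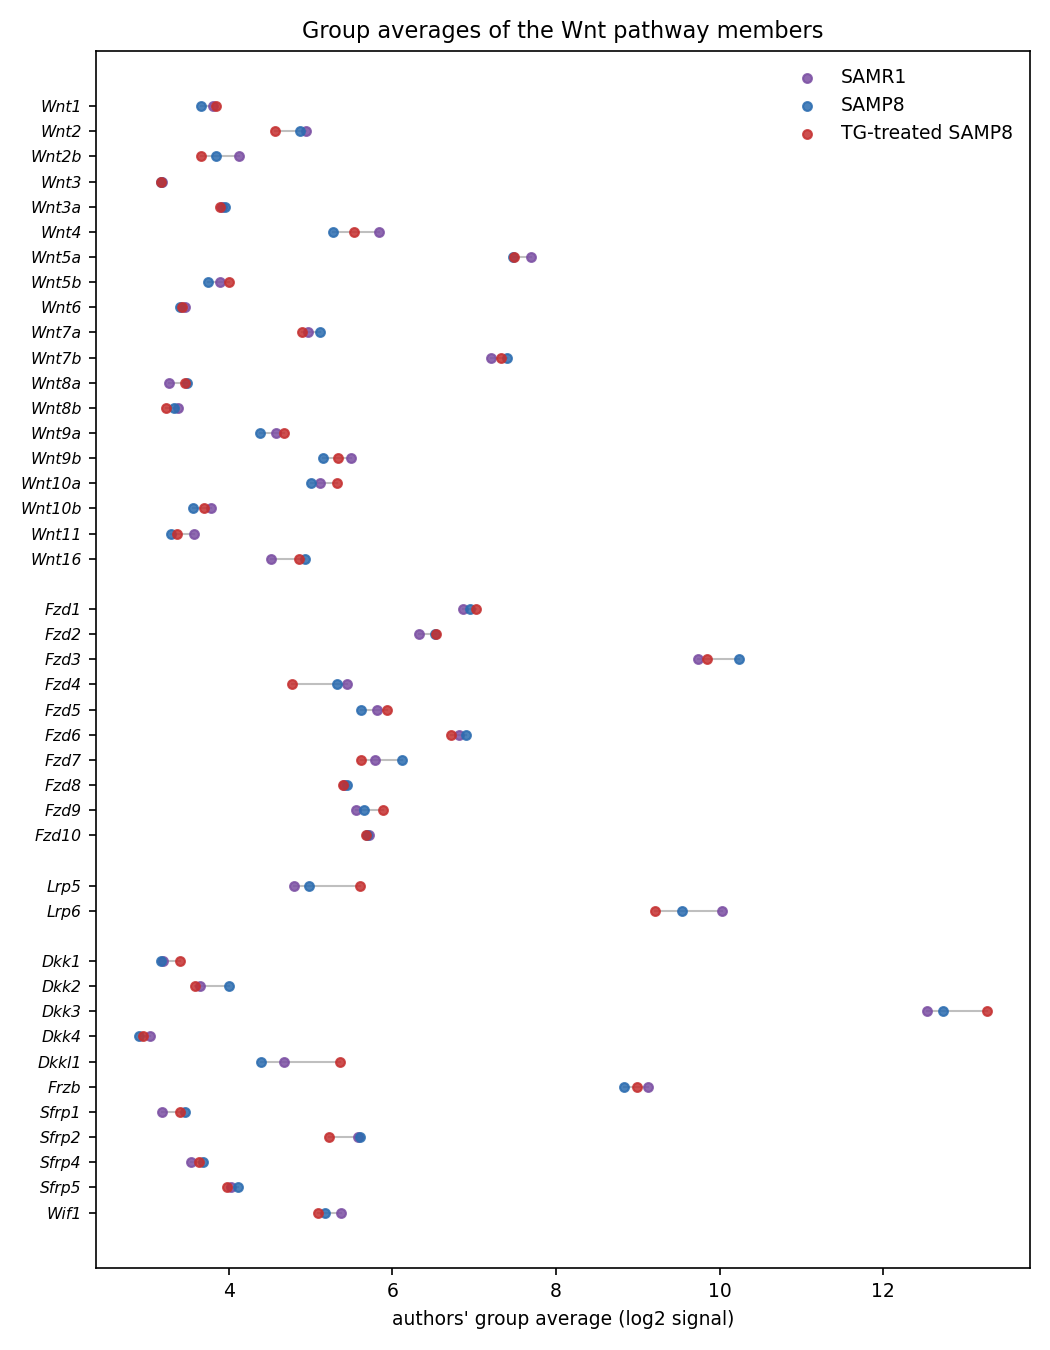
Authors' group averages (log2 signal, horizontal axis) of the 42 genes in SAMR1, SAMP8 and TG-treated SAMP8, 1 point per group, ordered by role. The 3 points of most genes lie close together, and Lrp5, Lrp6, Dkk3, Dkkl1 and Fzd4 show the TG-treated average apart from that of SAMR1.

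The first comparison, SAMP8 vs SAMR1, asks how the senescence-accelerated strain differs from its resistant control. None of the 42 genes was past the limit in either direction, against 5.00% of all probe sets higher in SAMP8 and 6.08% lower. The median difference was -0.03 for the 42 genes and 0.00 for all probe sets, and 19 of 42 genes were higher in SAMP8.

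Among the ligands, 14 of 19 had a lower average in SAMP8 and 5 a higher one, with a median of -0.11. The furthest was Wnt4, a ligand known from kidney and gonad development, whose averages were 5.84 (SAMR1), 5.27 (nontreated SAMP8) and 5.53 with TG. This is a log2 difference of -0.57, or 1.48-fold lower in SAMP8, just inside the limit, and 6.58% of all probe sets were at least as far below 0. Wnt9b, which acts upstream of Wnt4 in the developing kidney, had 5.50, 5.15 and 5.34 in the same order of groups, with a difference of -0.35. Wnt2b and Wnt11 each differed by -0.29. In the other direction, Wnt16, a ligand known from bone, had 4.52 in SAMR1, 4.93 in SAMP8 and 4.86 with TG, a difference of 0.41. The count of lower ligands depends on the scale of the averages. When the group averages were quantile-normalized, 10 ligands were higher and 9 lower, and the median was 0.0033. When each group was centred on its median, 6 were higher and 12 lower, with a median of -0.06, and the 9 ligands above the low-signal limit had 3 higher, 6 lower and a median of -0.11. Low-signal probe sets as a whole also leaned this way: 62.3% of all probe sets in the lowest 25% of signal and 60.6% in the next 25% were lower in SAMP8, against 41.6% and 31.5% in the brighter ones, and of the 19 ligands 10 were in the lowest 25% and 7 in the next. The part of this in the ligands' values was not tested.

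Ligands with known roles in the hippocampus had small differences. Wnt3, which drives neurogenesis in the adult dentate gyrus, had averages of 3.19 in SAMR1, 3.18 in SAMP8 and 3.17 with TG. Wnt3a, needed for the hippocampus to form, had 3.92, 3.96 and 3.90. The averages of both genes were within 0.1 of each other in the 3 groups and below the low-signal limit. Wnt7a and Wnt7b, which act on synapses and dendrites, had 4.97, 5.12 and 4.90 and 7.20, 7.40 and 7.33, so both were slightly higher in SAMP8, by 0.15 and 0.20. Wnt5a, a ligand that mostly signals without beta-catenin, had 7.70 in SAMR1 and 7.48 in SAMP8, a difference of -0.22, and 7.49 with TG. Wnt8b, a marker of the hippocampal primordium in the embryo, had 3.38, 3.33 and 3.24.

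The receptors leaned the other way from the ligands, with 7 of 10 higher in SAMP8, 3 lower and a median of 0.09 (8 higher and 2 lower under both other scalings). After quantile-normalization the ligands no longer leaned lower (10 higher and 9 lower), and the difference between the classes was not tested. Fzd3, a receptor needed for axon tracts to form, had 9.74 in SAMR1, 10.23 in SAMP8 and 9.85 with TG. It differed by 0.49 between the strains (1.40-fold), and 7.96% of all probe sets were at least as far above 0. Fzd7 had 5.79 in SAMR1 and 6.12 in SAMP8, a difference of 0.33. Fzd5 was lower, with 5.81 in SAMR1 and 5.62 in SAMP8. Fzd1 and Fzd9, both known in hippocampal neurons, had 6.86 and 6.95 and 5.56 and 5.65 in SAMR1 and SAMP8, which puts each within 0.1 between the strains.

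The co-receptors differed in opposite directions. Lrp6 had 10.03 in SAMR1 and 9.54 in SAMP8, a difference of -0.49 (1.40-fold lower), and quantile-normalization moved it to -0.64, past the limit. Lrp5 had 4.80 and 4.98, a difference of 0.18. Of the 11 antagonists, 6 were higher in SAMP8 and 5 lower, with a median of 0.02, and the 5 above the low-signal limit had 2 higher, 3 lower and a median of -0.19. Dkk2, a Dickkopf protein that binds Lrp6, had 3.65 and 4.00, a difference of 0.35, and Sfrp1, 3.19 and 3.47, a difference of 0.28. The mean signals of Dkk2 and Sfrp1 were below the low-signal limit. Frzb, also called Sfrp3 and known as a brake on adult neurogenesis, had 9.13 in SAMR1 and 8.83 in SAMP8, a difference of -0.30. The best-known blocker of Lrp6, Dkk1, had 3.20 and 3.17, both near the low end of the array's averages, which began at 2.42 in SAMR1 and 2.39 in SAMP8.

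**Figure D2:**
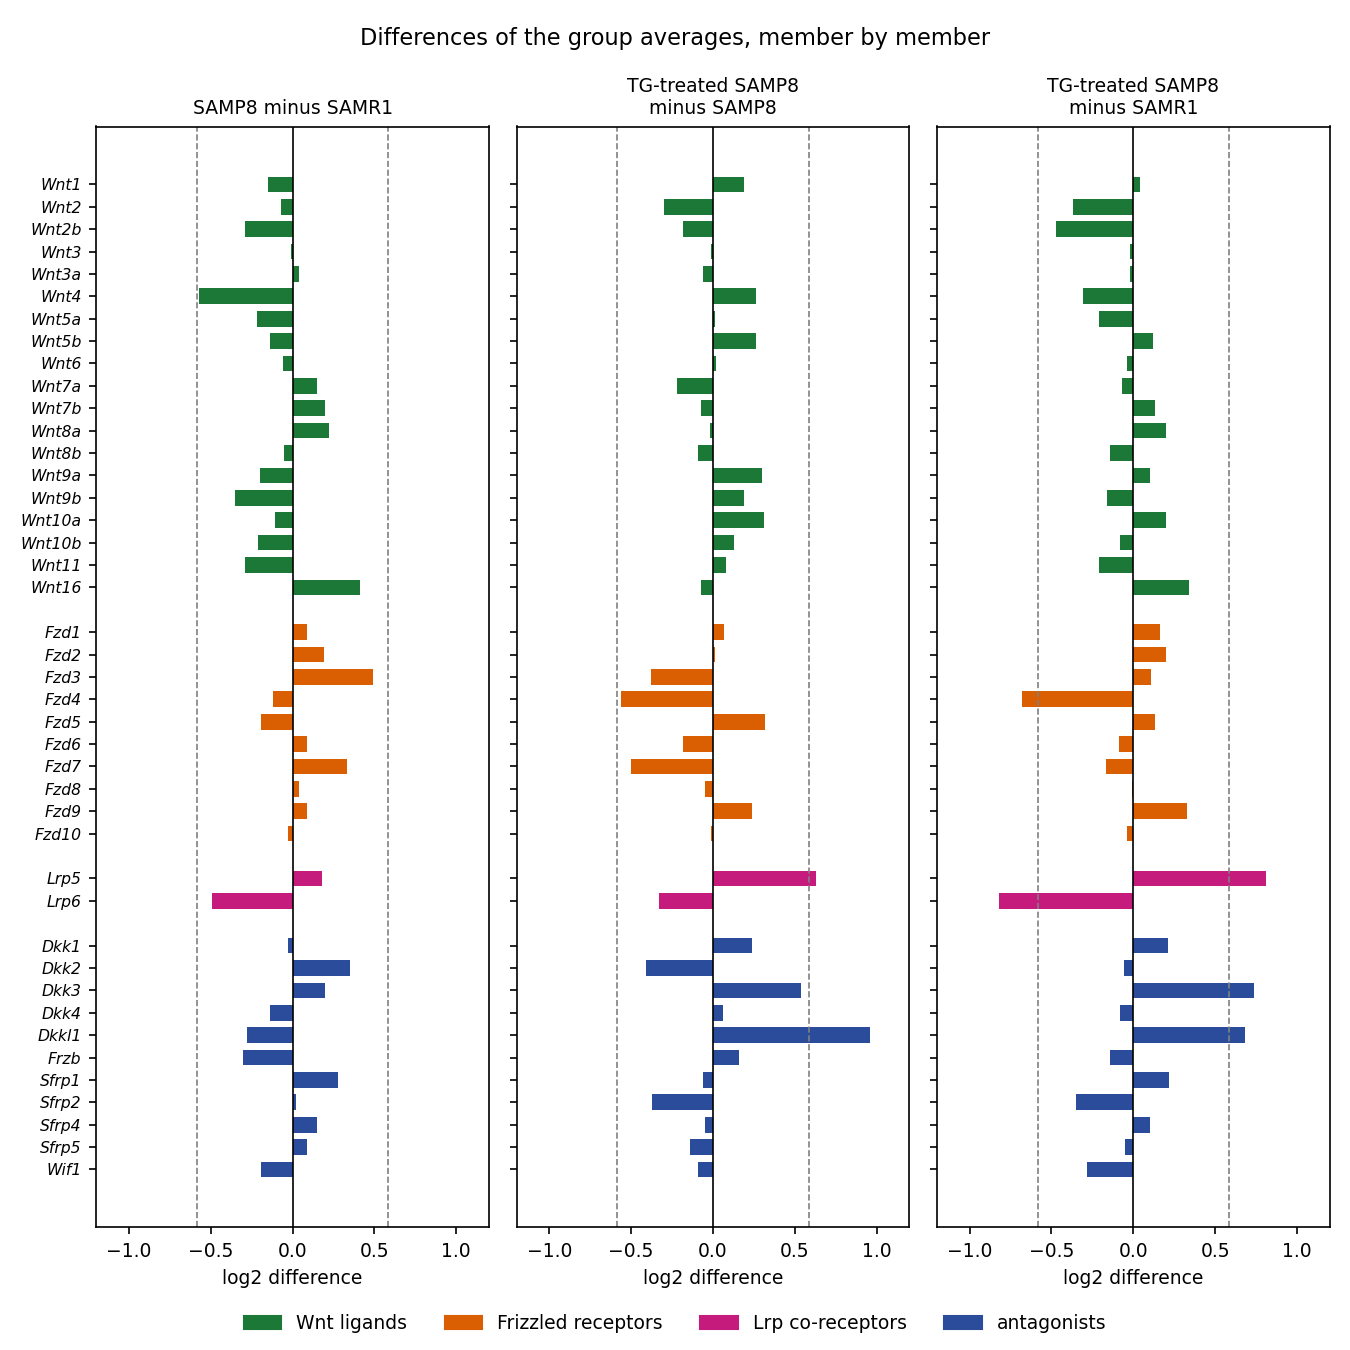
Log2 differences of the authors' group averages (horizontal axis), 1 bar for each of the 42 genes in each of the 3 comparisons, coloured by role; dashed lines mark 1.5-fold. No bar crosses the lines in SAMP8 vs SAMR1, those of Dkkl1 (0.96) and Lrp5 (0.63) cross the right one in TG-treated vs nontreated SAMP8, and in TG-treated SAMP8 vs SAMR1 Lrp5, Dkk3 and Dkkl1 cross the right line and Lrp6 and Fzd4 the left one.

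The second comparison asks what TG was accompanied by in SAMP8. It uses the same SAMP8 arrays as the first, so the differences of a gene in the first and the second are not independent of each other. TG-treated SAMP8 had 2 of the 42 genes past the limit upward, Dkkl1 and Lrp5, against 4.48% of all probe sets, and none downward, against 3.74%. The median was -0.01 for the 42 genes and 0.01 for all probe sets, with 20 of 42 genes higher.

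Dkkl1 had the highest difference of the set. It encodes a secreted Dickkopf-like protein known mainly from developing sperm cells, and lies on chromosome 7 from 45207525 to 45212165 in the mouse genome build GRCm38. Its averages were 4.68 in SAMR1, 4.40 in SAMP8 and 5.36 with TG. The difference between TG-treated and nontreated SAMP8 was 0.96, or 1.95-fold higher, and 0.59% of all probe sets were at least as far above 0. Lrp5, a co-receptor known from bone mass and from retinal vessels, lies on chromosome 19 from 3584825 to 3686585. It had 4.80 in SAMR1, 4.98 in SAMP8 and 5.61 with TG, so the average with TG was above both others. The TG difference was 0.63 (1.55-fold), and 3.67% of all probe sets were at least as far above 0. Under quantile-normalization it was 0.565, short of the limit.

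Dkk3 came close to the limit. It is the divergent member of the Dickkopf family, is abundant in hippocampal neurons, and lies on chromosome 7 from 112116019 to 112159482. The averages were 12.53 in SAMR1, 12.73 in SAMP8 and 13.27 with TG, a difference of 0.54 with TG (1.45-fold). After quantile-normalization the difference was 0.59, past the limit. Dkk2 went the other way, with 4.00 in SAMP8 and 3.59 with TG, a difference of -0.41. Its SAMR1 average was 3.65, and its mean signal was below the low-signal limit. Sfrp2, which binds Wnt ligands, had 5.60 and 5.23, a difference of -0.37. The 11 antagonists together had 5 higher and 6 lower, with a median of -0.05. The 5 above the low-signal limit had 3 higher (Dkk3, Dkkl1 and Frzb), 2 lower and a median of 0.16.

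Among the receptors the lowest differences were those of Fzd4 and Fzd7. Fzd4, the receptor for Norrin on vascular endothelium, lies on chromosome 7 from 89404366 to 89410110. It had 5.45 in SAMR1, 5.33 in SAMP8 and 4.77 with TG, a difference of -0.56 with TG (1.47-fold lower), and 4.41% of all probe sets were at least as far below 0. It passed the limit when each group was centred on its median (-0.59) or quantile-normalized (-0.61). Beside it, 9 of 10 endothelial markers were lower with TG, 2 of them past the limit, with a median of -0.20 and averages from 5.23 to 11.62. Between the strains 8 of 10 were higher in SAMP8, with a median of 0.265. Their part in the Fzd4 value was not tested, and in a whole tissue fewer cells of a type and less RNA per cell cannot be told apart. Fzd7 had 6.12 in SAMP8 and 5.62 with TG, a difference of -0.50, and its TG-treated average lay below that of SAMR1 (5.79). Fzd3 had 10.23 and 9.85, a difference of -0.38, beside a SAMR1 average of 9.74. In the other direction Fzd5 had 5.62 and 5.94, a difference of 0.32, and Fzd9 had 5.65 and 5.89, a difference of 0.24. In all, 4 of 10 receptors were higher with TG and 6 lower, with a median of -0.03.

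The ligands were evenly divided with TG, 10 higher and 9 lower, with a median of 0.01. The highest were Wnt10a (5.01 in SAMP8 and 5.32 with TG) and Wnt9a (4.38 and 4.68), with differences of 0.31 and 0.30, followed by Wnt4 (5.27 and 5.53) and Wnt5b (3.75 and 4.01), each with a difference of 0.26. Wnt2 was the lowest, with 4.87 and 4.57, a difference of -0.30, followed by Wnt7a, with 5.12 and 4.90, a difference of -0.22. The Wnt5a averages in the SAMP8 groups lay 0.01 apart, which is the rounding error. Lrp6 had 9.54 in SAMP8 and 9.21 with TG, a difference of -0.33 and the opposite direction to Lrp5.

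**Figure D3:**
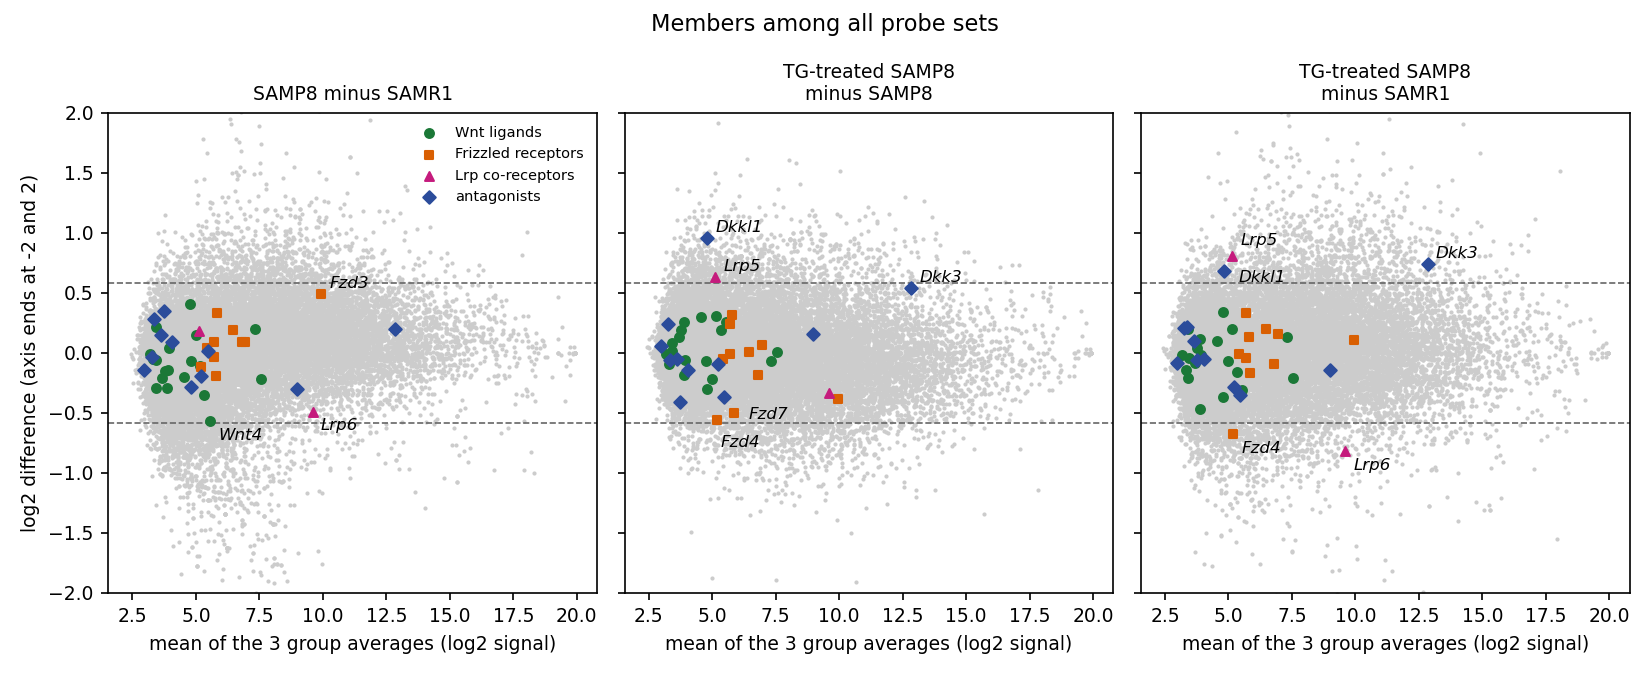
Log2 difference (vertical axis) against the mean of the 3 group averages (log2 signal, horizontal axis) for all 22206 probe sets (grey) and the 42 genes (coloured by role) in each comparison; dashed lines mark 1.5-fold, and 56, 2 and 42 probe sets beyond the vertical axis are not drawn. Most ligands sit at low signal inside the grey cloud, and the labelled genes lie at its edge or inside it.

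The third comparison, TG-treated SAMP8 vs SAMR1, asks how far the treated mice stood from the resistant strain. It is the sum of the other comparisons, not a further measurement. Past the limit were 3 of 42 genes upward (Lrp5, Dkk3 and Dkkl1), against 5.62% of all probe sets, and 2 downward (Lrp6 and Fzd4), against 4.83%.

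The co-receptors were the furthest apart here. Lrp5 differed by 0.81 (1.75-fold higher than in SAMR1), and 2.49% of all probe sets were at least as far above 0. Lrp6, the co-receptor without which mice do not live past birth, lies on chromosome 6 from 134446476 to 134566913 and had 10.03 in SAMR1, 9.54 in SAMP8 and 9.21 with TG. It differed by -0.82 (1.77-fold lower), and 1.67% of all probe sets were at least as far below 0. For both genes the SAMP8 average lay between those of SAMR1 and TG-treated SAMP8. The treated group was thus further from SAMR1 than nontreated SAMP8 was, for Lrp5 upward and for Lrp6 downward.

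Dkk3 showed the same order of groups as Lrp5, with a difference from SAMR1 of 0.74 (1.67-fold). Dkkl1 was lower in SAMP8 than in SAMR1 (-0.28) and, with TG, above SAMR1 by 0.68 (1.60-fold). Fzd4 was below SAMR1 by 1.60-fold, a difference of -0.68, of which -0.12 lay between the strains. The ligand furthest from SAMR1 was Wnt2b, with 4.13 in SAMR1, 3.84 in SAMP8 and 3.66 with TG, a difference of -0.47 at low signal. By class, 7 of 19 ligands, 5 of 10 receptors and 5 of 11 antagonists were higher than in SAMR1, with medians of -0.04, 0.05 and -0.05, while the median of all probe sets was -0.01.

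Several of the 19 ligand genes lie side by side in the genome, in 4 pairs less than 100 kb apart. Wnt6 and Wnt10a, on chromosome 1, are separated by 6.70 kb and differed by 0.02 and 0.31 with TG. Wnt3a and Wnt9a, on chromosome 11 with 16.1 kb between them, differed by -0.06 and 0.30. In both pairs 1 ligand had nearly the same averages in the SAMP8 groups and its neighbour a higher one with TG. Wnt10b and Wnt1, on chromosome 15 and 11.7 kb apart, differed by -0.21 and -0.15 between the strains and by 0.13 and 0.19 with TG, the same direction in each case. Wnt9b and Wnt3 on chromosome 11 overlap by 1097 bases in the annotation, and their strain differences were -0.35 and -0.01.

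Other genes of the pathway were followed in 4 lists. For Wnt secretion and its extracellular modulators, 25 probe sets of 24 genes were measured. Between the strains 1 was past the limit upward, Gpc4, and 1 downward, Lgr6, and with TG 1 was past it upward, Sostdc1, and 1 downward, Rspo2. Each of these counts is 4.0% of the list, near the shares of all probe sets (5.00% and 6.08% between the strains, 4.48% and 3.74% with TG). Lgr6, a receptor for the R-spondins that enhance Wnt signals, had 6.38 in SAMR1, 5.49 in SAMP8 and 5.28 with TG, differences of -0.89 and -1.10 from SAMR1. Gpc4, a cell surface heparan sulfate proteoglycan made by astrocytes, had 8.00, 8.61 and 8.13, so that SAMP8 was the high group, while 7 of 8 astrocyte markers were also higher in SAMP8 than in SAMR1, with a median of 0.315. The R-spondin gene Rspo2 had 10.67, 10.72 and 10.01, a difference of -0.71 with TG. The Wnt antagonist Sostdc1 had 6.32, 6.31 and 6.97, a difference of 0.66 with TG. It is also a marker of the choroid plexus, of whose 12 markers 6 were higher with TG (2 past the limit, Sostdc1 included) and 6 lower (1 past it). The part of astrocytes and choroid plexus in these values was not tested. Porcn, the enzyme that adds the lipid to Wnt proteins, had 10.51, 10.23 and 10.22, and Wls, their carrier to the cell surface, had 8.65, 8.88 and 8.65.

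The list of the beta-catenin complex and its effectors had 26 genes. SAMP8 had 17 higher and 8 lower than SAMR1, with 3 past the limit upward (11.5% of the list, against 5.00% of all probe sets), 1 downward (3.85%, against 6.08%) and a median of 0.14. The averages of this list in SAMR1 and nontreated SAMP8 spanned 4.29 to 15.77. Of its probe sets 30.8% were lower in SAMP8, beside 41.6% of all probe sets in the third 25% of signal and 31.5% in the brightest 25%. The part of signal in the list's values was not tested. Ctnnb1, the gene of beta-catenin itself, had 13.46 in SAMR1, 14.25 in SAMP8 and 13.57 with TG, from a probe set that the annotation shares with the microRNA gene Mir7090. It differed by 0.79 between the strains (1.73-fold) and by -0.68 with TG (1.60-fold lower), the only gene of the list past the limit with TG. Amer1, a scaffold of the destruction complex, had 6.06, 6.82 and 6.66. The TCF factor Tcf7l2, which is strongly expressed in the thalamus next to the hippocampus, had 7.72, 8.48 and 8.44, a strain difference of 0.76. Thalamus markers were higher in SAMP8 for 8 of 9 genes, with a median of 0.23 and 2 past the limit (22.2%, against 5.00% of all probe sets). With TG 7 of 9 were lower, with a median of -0.31. Of these markers 4 were past the limit downward with TG (44.4%, against 3.74% of all probe sets) and 1 upward (11.1%, against 4.48%). Their part in the Tcf7l2 value was not tested. Csnk1a1, the kinase that primes beta-catenin for its breakdown, had 15.77, 15.00 and 14.46, so both SAMP8 groups were below SAMR1, by -0.77 and -1.31. Gsk3b, the other kinase of the complex, had 15.76, 15.71 and 15.64, and Apc had 13.95, 13.72 and 13.50.

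In the list of 15 feedback and target genes of beta-catenin, 9 were higher and 5 lower in SAMP8 than in SAMR1, and with TG 5 were higher and 9 lower. Against SAMR1, TG-treated SAMP8 had 3 higher and 12 lower, with a median of -0.07. The feedback inhibitor Axin2, a widely used readout of the pathway, had 6.51 in SAMR1, 6.66 in SAMP8 and 6.87 with TG, and Lef1 had 4.29, 4.64 and 4.74. These were 2 of the 3 genes higher than SAMR1 in the treated group, and both were short of the limit in each comparison. Ccnd1, the gene of cyclin D1, had 8.78, 8.88 and 8.24, a difference of -0.64 with TG, from a probe set shared with Mir3962. Fgf20, a growth factor gene whose probe set is shared with Mir7666, had 4.82, 4.10 and 4.57, a strain difference of -0.72.

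Of the 19 receptors and polarity genes that act without beta-catenin, 10 were higher and 9 lower in SAMP8 than in SAMR1, and with TG 5 were higher and 14 lower, none past the limit. Rhoa, a GTPase that drives the cytoskeletal response, had 9.72 in SAMR1, 10.38 in SAMP8 and 10.13 with TG, a strain difference of 0.66. The core polarity gene Vangl2 had 6.47, 5.97 and 5.71, a difference of -0.76 between TG-treated SAMP8 and SAMR1. Prickle2, its partner at synapses, had 12.00, 12.36 and 11.78, a difference of -0.58 with TG that came just short of the limit. The Wnt receptor Ryk had 12.36, 12.39 and 12.30. All 4 lists had a negative median with TG, at -0.13, -0.125, -0.13 and -0.11 in the order given here. The median of all probe sets was 0.01. These 4 medians are not independent, because the list of feedback and target genes shares genes with other lists. It shares Apcdd1, Lgr5, Notum, Rnf43 and Znrf3 with that of Wnt secretion, and Axin2, Lef1 and Tcf7 with that of the beta-catenin complex. Lgr5 differed by -0.13 with TG, and this same value is the median of each list that holds it. Brighter probe sets as a whole also leaned lower with TG, with medians of -0.02 and -0.06 in the upper parts of the signal range (the third 25% and the brightest 25%), where 52.2% and 57.9% were lower. The lowest 25% and the next 25%, up to a signal of 6.08, leaned higher, with medians of 0.04 and 0.05 and 41.1% and 42.1% lower. The list of feedback and target genes had median averages of 5.98 in SAMP8 and 5.85 with TG, within that lower range. The part of signal in the lists' medians was not tested. After quantile-normalization Gpc4 and Rhoa between the strains and Ccnd1 with TG were no longer past the limit, and centring put 1 polarity gene past it downward with TG. With only probe sets of 1 symbol, Ctnnb1, Ccnd1 and Fgf20 dropped out. The list of the beta-catenin complex then had 2 genes past the limit upward between the strains and 0 downward with TG. That of feedback and target genes had 0 past it in both comparisons. In TG-treated SAMP8 vs SAMR1, quantile-normalization raised the genes past the limit downward from 1 to 2 in the list of the beta-catenin complex and from 0 to 1 in that of feedback and target genes. Probe sets of genes in more than 1 list count in each.

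**Figure D4:**
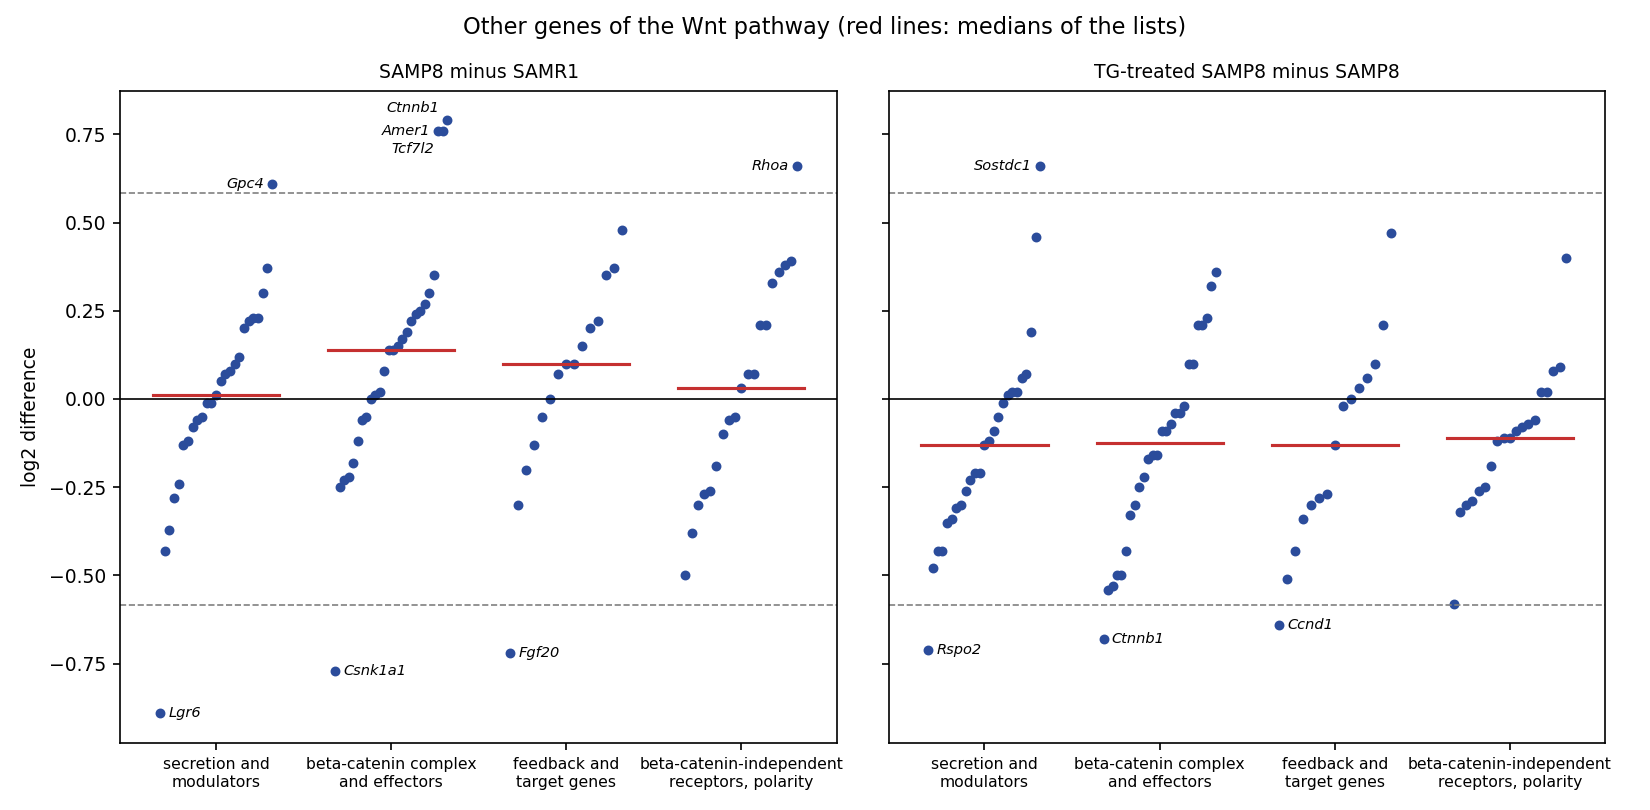
Log2 differences of the authors' group averages for the probe sets of the 4 lists of other Wnt pathway genes, each list drawn from its lowest to its highest value; red lines are medians and dashed lines mark 1.5-fold. Between SAMP8 and SAMR1, Ctnnb1, Tcf7l2, Amer1, Rhoa and Gpc4 are above the upper line, and with TG only Sostdc1 is.

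The tissue was checked against marker lists. All 12 hippocampal markers were measured, with averages from 5.20 to 14.88, and 9 were higher in SAMP8 than in SAMR1 (3 past the limit), with a median of 0.31. With TG, 5 were higher and 6 lower, with a median of -0.085. The 2 past the limit downward were Cpne4 (-1.05) and Prox1 (-0.85). Between the strains Prox1 was past the limit upward (0.59). Against SAMR1, TG-treated SAMP8 differed by -0.26 for Prox1 and by -0.90 for Cpne4. In the marker lists the counts past the limit are to be read against 5.00% of all probe sets higher and 6.08% lower between the strains, and 4.48% and 3.74% with TG. Markers of the meninges and fibroblasts were higher in SAMP8 for 7 of 12 genes (median 0.17) and lower with TG for 8 of 12 (median -0.31), with 5 past the limit. Mural cell markers were higher in SAMP8 for 5 of 9 (median 0.40) and lower with TG for 6 of 9 (median -0.33). Single mural markers went both ways, with 3 past the limit upward and 1 downward between the strains. With TG 1 was past it upward and 2 downward. Acta2 differed by 2.19 between the strains and by -2.17 with TG, and Tagln by -0.83 and 0.71. Choroid plexus markers had medians of -0.065 and -0.015 in these comparisons, but single markers went both ways. Their differences ran from -0.84 to 0.88 between the strains and from -0.79 to 0.72 with TG. In each comparison 2 of 12 were past the limit upward and 1 downward. Striatal markers had medians of 0.085 and -0.105, and astrocyte markers a median of -0.07 with TG. The part of any of these tissues and cell types in the values of the 42 genes was not tested.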

How the data were processed

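The authors hybridized hippocampal RNA to Clariom S Mouse arrays and summarized the probe intensities by SST-RMA in the Transcriptome Analysis Console. The 2 deposited tables hold the authors' group averages as log2 signal for 22206 probe sets, 3 arrays per group, and SAMP8 averages were the same in both. The 6 columns of the authors' own comparisons (signed fold changes, p-values and adjusted p-values) were not used. The free text attached to each record concerns another experiment in a cell line and was not used, and the vehicle is saline in the records and water in the methods. The series text speaks of duplicates, whereas records and methods give 3 arrays per group.

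Differences of averages were computed in Python 3.11.15 (numpy 2.4.6, pandas 2.3.3, matplotlib 3.10.9) after a test on simulated data. Named are the genes past 1.5-fold in any comparison, the 3 highest and 3 lowest of each comparison, a list of genes known in the hippocampus, and, of the pathway lists, genes past the limit and some others. Wnt2, Wnt5b, Wnt9a, Wnt10a, Wnt11 and Sfrp2 were named after their values were seen, and Wnt1, Wnt6 and Wnt10b for their position. The symbol rule for the 42 genes and the lists were set with earlier results of these data known, and Cpne4 and Prox1 were named after their values were seen. Positions come from the GRCm38 reference annotation, which placed 42 of 42 genes on the chromosome in the probe set's name. Alternatives were centring, quantile-normalization, leaving out the lowest 25% of signal, fold limits of 1.2 and 2, probe sets with 1 symbol, and 1 value per gene. Protein and promoter sequences were not examined here.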

Additional observations from a re-analysis of the deposited data

How the results depend on the processing

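Among the members named by rule, no difference past the limit changed direction under the alternatives. For the pathway lists only the counts past the limit were followed, and the marker lists were not run under the alternatives. For single genes among those named by rule, 334 alternative values kept their side of the limit, 4 passed it (Lrp6 once, Fzd4 under both scalings, Dkk3 once) and 1 no longer did (Lrp5 with TG, 0.565 after quantile-normalization). Only centring and quantile-normalization could move the value of a single gene, and all of these changes came under them. The other alternatives repeat the main value, because each gene has 1 probe set with 1 symbol. The 334 therefore overstates how stable the values are. In SAMP8 vs SAMR1, 0 genes of the 42 were past 1.5-fold in either direction, 5 higher and 7 lower were past 1.2-fold (20.4% and 20.4% of all probe sets), and quantile-normalization put 1 lower (Lrp6, -0.64). It also moved the ligand median to 0.0033, and leaving out the lowest 25% of signal moved the antagonist median to -0.19. In TG-treated vs nontreated SAMP8, 6 higher and 7 lower were past 1.2-fold (19.6% and 18.5% of all), 0 higher past 2-fold, and 1 lower (Fzd4) under centring or under quantile-normalization, while the antagonist median was 0.16 without the lowest 25%. In TG-treated SAMP8 vs SAMR1, 5 higher and 7 lower were past 1.2-fold (20.0% and 20.5% of all), and 0 higher and 0 lower past 2-fold. Centring changed the split of all probe sets in SAMP8 vs SAMR1 from 5.00% higher and 6.08% lower to 6.21% and 4.96%. No paired analysis was possible because the values used are group averages, which carry no replicate, and for the same reason no replicate could be left out. The error of differences near the limit was not estimated here.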
